A study of Mus musculus with 20 samples.

Results

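The data described here are the step from 100 pM to 1 nM of native mouse interleukin-21 (mIL-21, labelled WT in the sample titles) in CD8+ T cells. The members were chosen by their labels alone, as the libraries of the first experiment given mIL-21 at 100 pM or at 1 nM for 24 h. They are 4 of the 20 RNA-seq libraries of the series, 2 duplicates at each dose. The cells of every group were splenic CD8+ T cells of C57BL/6J mice aged between 6 and 8 weeks, taken by negative selection, activated for 48 h with anti-CD3 at 2 µg/mL and anti-CD28 at 1 µg/mL, and rested overnight before cytokine was added. The unstimulated libraries of the same experiment carry that activation and rest but no cytokine. Their labels give no culture time, so they may not match the 24 h of the cytokine groups. The first experiment also holds 21h10, a computationally designed protein that engages the IL-21 receptor, at the same 2 doses. The second experiment holds both cytokines at 10 nM and 100 nM for 24 h. The sources used here call the libraries biological duplicates, and do not say whether they came from separate mice, so p-values measure the spread between these libraries.

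IL-21 is made mainly by activated CD4+ T cells and binds a receptor of a private chain, IL-21R, and the common γ chain encoded by Il2rg. The receptor signals through JAK1 and JAK3 and phosphorylates chiefly STAT3. In CD8+ T cells it is known for raising granzymes and perforin and for acting with other cytokines on proliferation and memory. SOCS proteins are induced by STATs and restrain the same pathway. The libraries show the state at 24 h and not the course up to it.

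In the first experiment 36824740 to 94070730 reads per library were assigned to genes, and 36824740 to 45841668 in the 4 mIL-21 libraries. Cells carried the marks of the labelled type. Cd8a stood at 508 and 500.4 CPM at 100 pM and 545 and 516 CPM at 1 nM. CPM are counts scaled to library size, with factors by the trimmed mean of M values (TMM). The 8 CD8 T cell markers summed to between 3233 and 3329 CPM in the 4 libraries. Of these markers 0 were called higher at 1 nM and 2 lower, Cd8b1 (log2 change -0.21) and Cd3g (-0.13). Of the 10 myeloid markers measured, 5 were at 0 reads in all 4 libraries (Csf1r, C1qa, C1qb, S100a8 and S100a9), and their sum of 32.1 and 30.3 CPM at 100 pM against 80.3 and 80.0 CPM at 1 nM was carried mainly by Itgam and Cd68, the latter at 16.0 and 15.4 CPM against 22.2 and 23.3 CPM. B cell markers summed to 12.5 to 17.6 CPM, and NK cell markers to 4.77 to 6.46 CPM, both lower at 1 nM. The 6 stromal markers summed to 71.6 and 68.1 CPM at 100 pM and 58.4 and 57.7 CPM at 1 nM, nearly all of it Pecam1, and the other 5 were low with none called. The part of such cells in the results was not tested. Fewer cells of a type and less RNA per cell cannot be told apart in such bulk libraries.

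Raising mIL-21 from 100 pM to 1 nM changed 4825 of 13974 genes tested (34.5%; edgeR quasi-likelihood test, Benjamini-Hochberg adjusted p under 0.05), of which 2503 were higher at 1 nM (17.9%) and 2322 lower (16.6%). Most changes were small. The median size of the log2 fold change among called genes was 0.35, beside a median standard error of 0.078 over all genes tested, and 555 called genes moved by 1 or more, 377 of them upward and 178 downward. The 2 libraries of one dose did not overlap those of the other in 66.3% of all genes tested and in 4824 of the 4825 called. Without the first 100 pM duplicate the calls fell to 3009 (1660 higher, 1349 lower). The balance of rises and falls depended on the scaling. TMM puts the median gene at 0.00, whereas scaling by mapped reads put it at -0.12 and gave 1459 rises and 4132 falls, and limma on log2(RPKM + 1) put it at -0.11 and gave 1228 rises and 3804 falls. Changes below are relative to the TMM median. Counts of called genes in every list below are to be read beside the 17.9% higher and 16.6% lower over all genes tested.

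**Figure D1:**
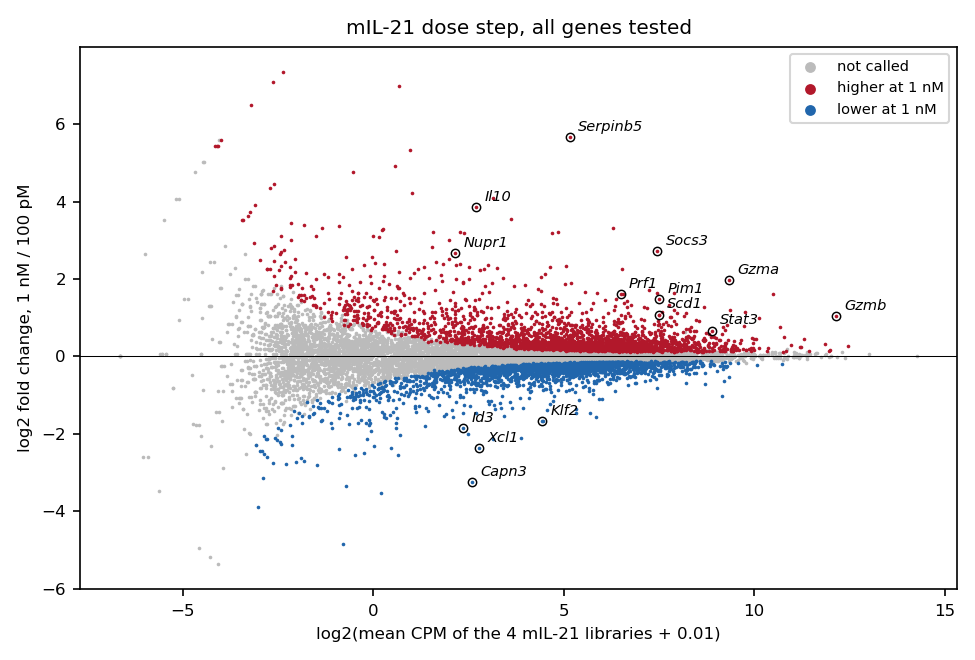
The log2 fold change from 100 pM to 1 nM of mIL-21 (vertical axis) is plotted against the log2 mean CPM of the 4 libraries (horizontal axis) for the 13974 genes tested, with 2503 genes called higher in red and 2322 called lower in blue. The named points are called genes of differing level, with Nupr1 and Id3 among the lower and Gzmb at the high end.

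Rises and falls were ranked among called genes with no overlap between the doses and a mean RPKM of at least 1 at the higher of them. The largest rises were in genes that were low at 100 pM. Serpinb5, which encodes the serpin maspin (GRCm38 chr1:106861175-106883348), stood at 1.51 and 1.20 CPM at 100 pM and 69.8 and 69.8 CPM at 1 nM, a log2 change of 5.67 ± 0.082 (SE) (adjusted p = 6.93e-18). Gcnt1 (chr19:17326141-17372844), the enzyme that builds core 2 branches on O-glycans, stood at 1.05 and 0.871 CPM at 100 pM and 17.1 and 16.4 CPM at 1 nM and changed by 4.10 ± 0.12. Il10 (chr1:131019845-131024970), the anti-inflammatory cytokine, stood at 0.949 and 0.692 CPM at 100 pM and 11.97 and 12.3 CPM at 1 nM and changed by 3.86 ± 0.15. The doses lay far apart in all 3 genes, with duplicates close to each other. The unstimulated libraries held 0.141 and 0.145 CPM for Serpinb5, 1.37 and 1.58 CPM for Gcnt1 and 0.465 and 0.491 CPM for Il10, so Gcnt1 was lower at 100 pM than without cytokine and higher at 1 nM.

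Next by size of rise, Kif1a, a kinesin motor of vesicle transport (chr1:93015455-93102039), stood at 1.88 and 1.999 CPM at 100 pM and 20.4 and 24.5 CPM at 1 nM. Ifitm1, an interferon-induced membrane protein (chr7:140967429-140969827), stood at 14.5 and 13.8 CPM at 100 pM and 136.3 and 146 CPM at 1 nM. Their log2 changes were 3.54 ± 0.11 and 3.32 ± 0.076. The remaining 7 of the 12 largest rises fell between 3.11 and 3.28 on the log2 scale. They were Gm5535, Enpp2 (autotaxin), Tgm1 (a transglutaminase), Ggt1 (a γ-glutamyltransferase), Serpinb1a (an inhibitor of neutrophil-type proteases), Hlx (a homeobox factor) and Timp1 (an inhibitor of metalloproteinases). Levels in this group differed widely. Timp1 stood at 0.247 and 0.154 CPM at 100 pM and 1.48 and 2.07 CPM at 1 nM, and Ggt1 at 6.10 and 5.13 CPM at 100 pM and 50.8 and 53.5 CPM at 1 nM. The first gene past the limit of 12 was H19, at 3.002. Moxd1 was left out by its level in RPKM, with 0 and 2 reads at 100 pM and 3.12 and 3.19 CPM at 1 nM.

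The largest falls were in genes of low or moderate level. Capn3, a calpain protease (chr2:120463593-120504919), stood at 10.9 and 10.9 CPM at 100 pM and 1.20 and 1.10 CPM at 1 nM, with 9.96 and 9.54 CPM in unstimulated cells, and changed by -3.25 ± 0.14 (adjusted p = 9.03e-12). Xcl1 (chr1:164931644-164935522), a chemokine made by CD8+ T and NK cells that acts on cross-presenting dendritic cells, went from 11.8 and 11.1 CPM at 100 pM to 1.94 and 2.49 CPM at 1 nM and changed by -2.36 ± 0.12. Iigp1, an interferon-inducible GTPase, went from 24.7 and 23.4 CPM at 100 pM to 6.39 and 4.77 CPM at 1 nM and changed by -2.12 ± 0.11. Hemgn (-2.12), Tbc1d4 (-2.01), Derl3 (-1.93), Id3 (-1.85), Cpa3 (-1.85), Ifi44 (-1.80), H2-Aa (-1.73) and Grtp1 (-1.72) followed, and Klf2, at -1.67, was the first gene past the limit of 12. Cpa3 and Grtp1 were higher at 100 pM than in unstimulated cells, where Cpa3 had 0.238 and 0.254 CPM and Grtp1 0.681 and 0.600 CPM, against 1.96 and 2.77 CPM and 2.60 and 1.95 CPM at 100 pM. Mir6537 also met the rule, on 11 and 13 reads at 100 pM against 3 and 3 at 1 nM, and lost its call with DESeq2 and without any 1 of the 4 libraries.

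**Figure D2:**
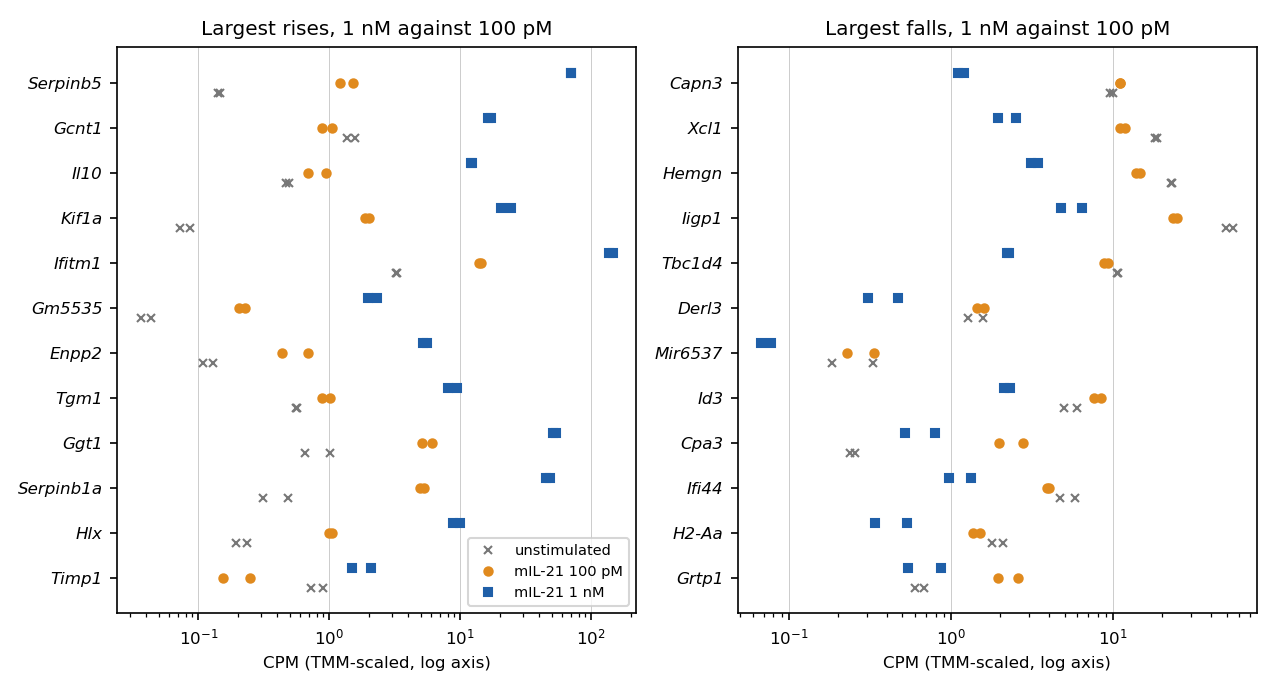
Each point is 1 library of the first experiment, in CPM on a log axis, for the 12 genes with the largest rise (left) and the 12 with the largest fall (right) from 100 pM (orange circles) to 1 nM (blue squares), with unstimulated libraries as grey crosses. The 1 nM squares of Serpinb5 lie at 69.8 CPM against 1.20 and 1.51 CPM at 100 pM, and the genes were chosen to have no overlap between the doses.

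Genes of the receptor and its pathway moved in part. Il21r itself rose, from 142.9 and 135.8 CPM at 100 pM to 232 and 237 CPM at 1 nM (log2 change 0.75 ± 0.047), while Il2rg, the shared chain, stood at 481 and 485 CPM at 100 pM and 479 and 475 CPM at 1 nM and was not called (adjusted p = 0.79). Il2ra, the high-affinity chain of the IL-2 receptor, rose from 736 and 737 CPM at 100 pM to 1508 and 1452 CPM at 1 nM. Il10ra fell from 147 and 144 CPM at 100 pM to 91.6 and 90.5 CPM at 1 nM and Ifngr2, a chain of the interferon-γ receptor, from 17.7 and 18.9 CPM at 100 pM to 12.5 and 12.4 CPM at 1 nM. Of 24 cytokine receptor genes tested 8 rose (33.3%, against 17.9% of all genes) and 6 fell (25%, against 16.6%). Their median was 0.04, and -0.07 when scaled by mapped reads. Il12rb2 was among those that rose, from 385 and 394 CPM at 100 pM to 569 and 531 CPM at 1 nM, although 40% of its annotated exonic bases overlap Serbp1 on the other strand, and the strand setting of the counting is not given in the sources used here.

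Of the 11 JAK and STAT genes 4 rose and 4 fell, or 4 and 2 without the first 100 pM duplicate. Stat3 rose from 365 and 362 CPM at 100 pM to 578 and 577 CPM at 1 nM (log2 change 0.67 ± 0.045, adjusted p = 3.73e-09) and Stat5a from 105 and 101 CPM at 100 pM to 169 and 173 CPM at 1 nM (0.72 ± 0.049). The doses did not overlap in either gene. In authors' RPKM, which allows for length, mean Stat3 went from 72.4 at 100 pM to 106 at 1 nM.

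The SOCS genes, which encode inhibitors of JAK-STAT signalling, were led by Socs3 (chr11:117966079-117970336), which rose from 47.8 and 44.6 CPM at 100 pM to 296 and 312 CPM at 1 nM, a log2 change of 2.72 ± 0.062 (adjusted p = 4.77e-15). Cish rose from 59.7 and 56.6 CPM at 100 pM to 112 and 117 CPM at 1 nM (0.97 ± 0.055) and Socs1 from 20.95 and 19.2 CPM at 100 pM to 26.1 and 34.1 CPM at 1 nM (0.59 ± 0.11). Socs5 fell from 16.8 and 17.1 CPM at 100 pM to 13.9 and 13.3 CPM at 1 nM. In all, 4 of 8 rose (50%, against 17.9% of all genes), 1 fell (12.5%, against 16.6%) and 3 were not called. STATs bind the palindrome TTCNNNGAA, and the RefSeq promoter windows (300 bases, from 250 before to 50 after an annotated start, GRCm38.p6) of Socs3 and Cish both hold it. They are shown because these were the SOCS genes with the widest rises, 5′ to 3′ on the gene's strand with matches in capitals, Socs3 from chr11:117969472-117969560 (minus strand) and Cish from chr9:107296619-107296683 (plus strand).
Socs3: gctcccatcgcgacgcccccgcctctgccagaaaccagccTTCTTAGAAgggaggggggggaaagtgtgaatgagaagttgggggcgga
Cish: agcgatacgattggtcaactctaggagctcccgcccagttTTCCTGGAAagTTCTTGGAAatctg
The Socs3 match begins 154 bases before the start of the entry, and the Cish matches begin at the start and 11 bases after it. The same letters occurred in 8.37% of the 10254 tested genes with a promoter entry, in 9.06% of those higher at 1 nM and in 9.36% of those lower. Of the 18 genes with an entry in the list of STAT3 targets 3 held it. A match of letters describes the window and is no evidence of binding.

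Genes known as STAT3 targets were mostly higher. Of 25 tested 21 rose (84%, against 17.9% of all genes tested), 1 fell, and the median log2 change was 0.84 (-0.00 over all genes). Pim1, a survival kinase, rose from 99.5 and 92.8 CPM at 100 pM to 259.9 and 277 CPM at 1 nM (1.48 ± 0.052), while Bcl3, an atypical IκB protein, rose from 72.4 and 68.7 CPM at 100 pM to 132 and 157 CPM at 1 nM (1.04 ± 0.074). Bcl6, Ahr, Maf, Prdm1 and Il24 belong to this list as well. Myc was the member that fell, from 265 and 267 CPM at 100 pM to 200.1 and 208.4 CPM at 1 nM (-0.38 ± 0.047). Il22 was at 0 and 1 reads at 100 pM and at 8 and 7 reads at 1 nM, lost its call without the first duplicate of either dose, and cannot be told apart from its near-identical copy Iltifb.

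Cytotoxic effector genes rose in the main. Of 19 tested 11 rose (57.9%, against 17.9%), 2 fell (10.5%, against 16.6%) and 6 were not called, with a median of 0.30. The falls numbered 1 without the second 1 nM and 0 without the first 100 pM duplicate. Prf1, the pore-forming perforin, rose from 45.9 and 43.0 CPM at 100 pM to 133.8 and 137.1 CPM at 1 nM, a log2 change of 1.61 ± 0.064 (adjusted p = 5.55e-12). Gzma rose from 266 and 259.9 CPM at 100 pM to 1017 and 1039 CPM at 1 nM (1.97 ± 0.05). Gzmb rose from 2954 and 2965 CPM at 100 pM to 6073 and 6115 CPM at 1 nM (1.04 ± 0.045). In RPKM, mean Gzmb went from 1866 at 100 pM to 3547 at 1 nM and mean Gzma from 267 at 100 pM to 965 at 1 nM, so Gzmb was the more abundant at both doses. In unstimulated cells Gzmb had 2832 and 2793 CPM, near its level at 100 pM, whereas Prf1 had 18.6 and 18.4 CPM and Gzma a mean of 40.5 ± 0.783 CPM (SD, n = 2). Both of these were thus already above the unstimulated level at 100 pM, while the rise of Gzmb lay between 100 pM and 1 nM. Ctsw (227 and 226 CPM at 100 pM and 367 and 369.7 CPM at 1 nM) and Nkg7 (251 and 240.2 CPM at 100 pM and 339 and 360.5 CPM at 1 nM), of the cytotoxic granule, rose less. Tnfsf10, the death ligand TRAIL, rose from 75.9 and 79.1 CPM at 100 pM to 107 and 102 CPM at 1 nM. Gzmm was low and fell, from 1.26 and 0.846 CPM at 100 pM to 0.511 and 0.337 CPM at 1 nM, a call lost without the second 1 nM or the first 100 pM duplicate.

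**Figure D3:**
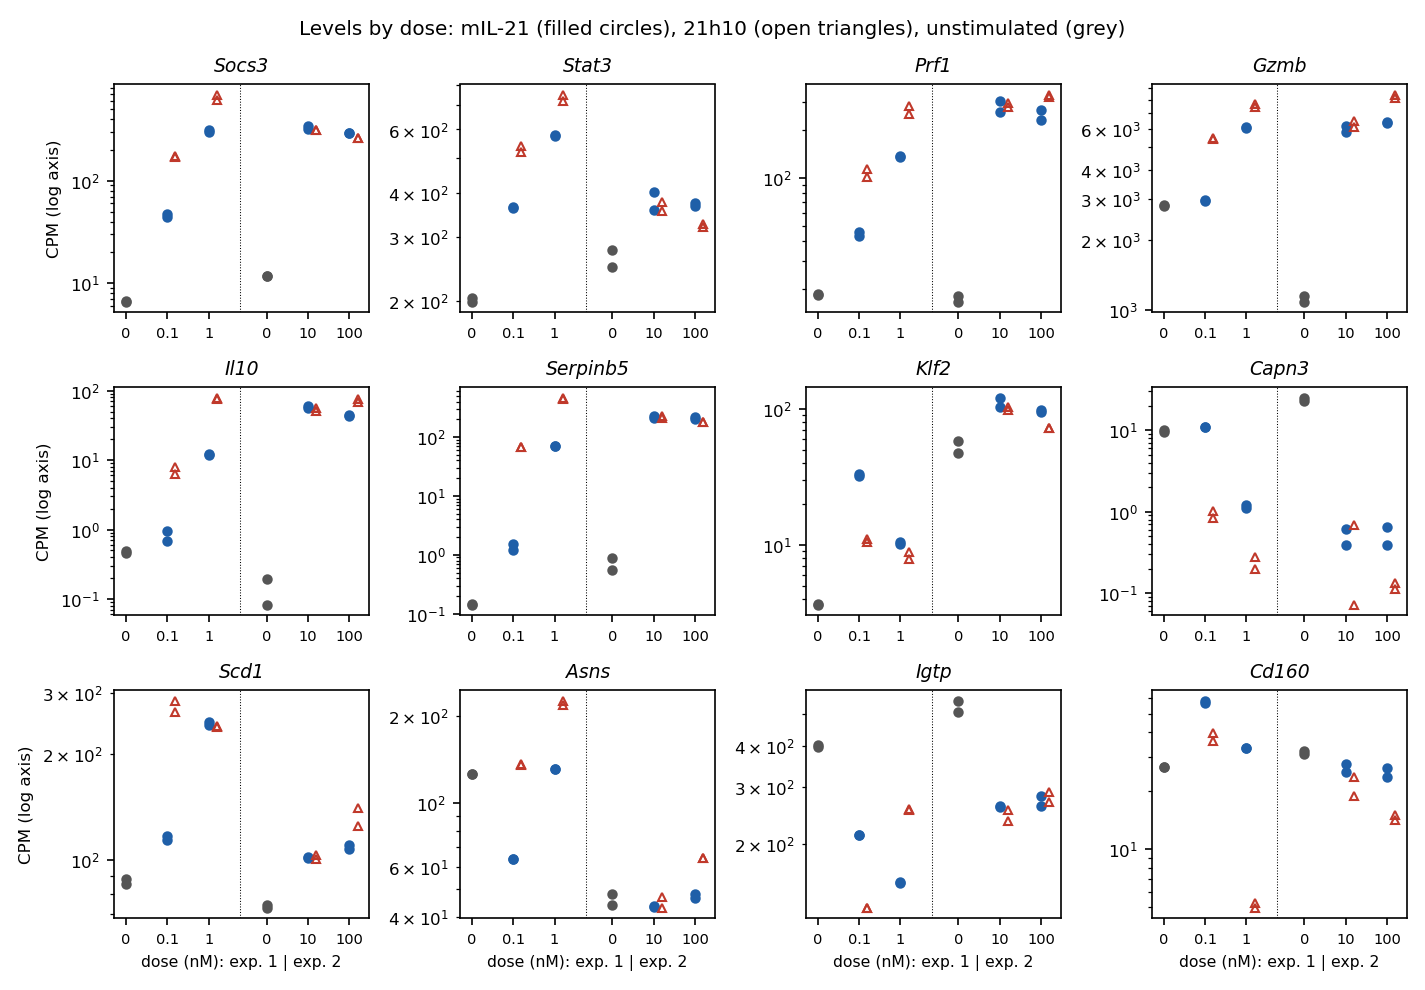
CPM of 12 genes on log axes by dose, with 1 point per library, the first experiment left and the second right of the dotted line, mIL-21 as filled circles, 21h10 as open triangles and unstimulated cells in grey. Prf1 and Socs3 are above the unstimulated level at 100 pM and higher still at 1 nM, Gzmb is at 2954 and 2965 CPM at 100 pM and above both at 1 nM, and the 10 nM and 100 nM mIL-21 circles of each gene lie close together.

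Of 24 transcription factors of effector differentiation 15 rose (62.5%, against 17.9% of all genes) and 5 fell (20.8%, against 16.6%), with a median of 0.39. Prdm1 (Blimp-1), a driver of terminal effector cells, rose from 39.4 and 38.7 CPM at 100 pM to 65.8 and 66.2 CPM at 1 nM (0.76 ± 0.054). Bcl6, its known antagonist, rose as well, from 15.3 and 15.8 CPM at 100 pM to 32.5 and 34.7 CPM at 1 nM (1.11 ± 0.076). Ahr (4.64 and 4.56 CPM at 100 pM and 11.9 and 10.6 CPM at 1 nM) and Maf (1.75 and 1.69 CPM at 100 pM and 3.27 and 3.30 CPM at 1 nM) also rose. So did Id2 (167 and 161 CPM at 100 pM and 289 and 282 CPM at 1 nM) and Nfil3 (123 and 123 CPM at 100 pM and 224 and 237 CPM at 1 nM). Those that fell included Eomes, a T-box factor of memory cells, from 57.7 and 61.1 CPM at 100 pM to 35.0 and 35.1 CPM at 1 nM (-0.76 ± 0.054). Gata3 fell from 94.8 and 93.7 CPM at 100 pM to 62.6 and 63.9 CPM at 1 nM, and Tox, a factor of exhausted cells, from 15.2 and 15.9 CPM at 100 pM to 11.02 and 10.5 CPM at 1 nM. Eomes, Gata3 and Tox were each higher at 100 pM than in unstimulated cells, where they had 45.8 and 46.0 CPM, 40.6 and 41.0 CPM and 8.80 and 8.90 CPM. Of the unstimulated, 100 pM and 1 nM libraries, those at 100 pM were thus highest in each gene.

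Genes of quiescence and memory went the other way, with 14 of 20 lower (70%, against 16.6% of all genes), 3 higher and a median of -0.26. Klf2, which drives genes of lymphocyte recirculation, fell from 33.5 and 32.1 CPM at 100 pM to 10.5 and 10.2 CPM at 1 nM, a log2 change of -1.67 ± 0.076 (adjusted p = 2.42e-11), and had 3.64 and 3.72 CPM in unstimulated cells. Id3, an inhibitor of E proteins linked to memory precursors, fell from 7.63 and 8.38 CPM at 100 pM to 2.12 and 2.29 CPM at 1 nM (-1.85 ± 0.15). Tcf7, which encodes TCF-1, fell by less, from 499.5 and 505 CPM at 100 pM to 422 and 421 CPM at 1 nM (-0.25 ± 0.046), and Lef1 from 176 and 184 CPM at 100 pM to 142.9 and 149.9 CPM at 1 nM. Satb1, a chromatin organiser, was among the 3 that rose, from 357 and 352 CPM at 100 pM to 481 and 469 CPM at 1 nM.

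Secreted cytokines were mixed. Of 20 tested 9 rose (45%, against 17.9% of all genes) and 4 fell (20%, against 16.6%). Lif rose from 9.90 and 9.84 CPM at 100 pM to 31.0 and 33.2 CPM at 1 nM (1.70 ± 0.077). Osm, of the same family, rose from 16.6 and 15.4 CPM at 100 pM to 41.6 and 40.3 CPM at 1 nM (1.35 ± 0.082), and Il24 from 2.06 and 1.49 CPM at 100 pM to 7.18 and 7.24 CPM at 1 nM. Ifng rose from 2.248 and 2.02 CPM at 100 pM to 6.47 and 5.28 CPM at 1 nM (1.45 ± 0.13), and with 5.60 and 5.45 CPM in unstimulated cells its duplicates at 1 nM spanned those without cytokine. Tnf fell from 8.62 and 8.43 CPM at 100 pM to 5.37 and 4.90 CPM at 1 nM and Lta, lymphotoxin-α, from 21.8 and 21.4 CPM at 100 pM to 8.26 and 8.99 CPM at 1 nM (-1.32 ± 0.098). Among 9 chemokine genes 3 rose and 3 fell (33.3% each, against 17.9% and 16.6% of all genes). Their median of -0.61 depended on which genes were tested, at 0.60 over the 6 left with only the groups compared, 0.25 over 6 with limma and -2.14 over 15 without the low-count filter, and was -0.23 without the second 1 nM duplicate. Ccl4 rose from 0.928 and 0.9996 CPM at 100 pM to 5.47 and 4.99 CPM at 1 nM and Ccl3 from 1.13 and 0.795 CPM at 100 pM to 2.15 and 2.36 CPM at 1 nM, while Ccl5 fell from 69.5 and 75.2 CPM at 100 pM to 45.5 and 49.4 CPM at 1 nM. Cxcl10, an interferon-induced chemokine, had 1319 and 844 reads in unstimulated cells, 8 and 11 at 100 pM and 1 and 3 at 1 nM, and its call between the doses was lost without the first 1 nM or the second 100 pM duplicate and with limma. Of the chemokine receptors Cxcr3, the receptor for Cxcl10, fell from 58.7 and 58.8 CPM at 100 pM to 21.1 and 21.8 CPM at 1 nM (-1.45 ± 0.067).

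Inhibitory receptors rose in 9 of 17 (52.9%, against 17.9% of all genes) and fell in 3 (17.6%, against 16.6%), with a median of 0.17. Lag3 rose from 188 and 183 CPM at 100 pM to 386 and 427 CPM at 1 nM (1.13 ± 0.055). Havcr2 (TIM-3) rose from 38.6 and 38.4 CPM at 100 pM to 72.3 and 66.3 CPM at 1 nM and Entpd1 (CD39) from 19.5 and 19.8 CPM at 100 pM to 47.1 and 46.9 CPM at 1 nM (1.26 ± 0.058). Pdcd1, which encodes PD-1, stood at 30.5 and 31.7 CPM at 100 pM and 30.1 and 30.0 CPM at 1 nM and was not called (adjusted p = 0.676), and Cd160 fell from 58.2 and 56.9 CPM at 100 pM to 33.2 and 33.1 CPM at 1 nM. Of 19 costimulatory receptors and ligands 6 rose and 6 fell, with 3 falls without the second 1 nM or the first 100 pM duplicate. The TNF receptor family members Tnfrsf9 (4-1BB, 396 and 404 CPM at 100 pM and 882 and 940.3 CPM at 1 nM), Tnfrsf4 (OX40, 87.2 and 86.4 CPM at 100 pM and 193.4 and 218 CPM at 1 nM) and Tnfrsf18 (GITR, 119 and 116 CPM at 100 pM and 249 and 274 CPM at 1 nM) all rose, by 1.19, 1.25 and 1.15 on the log2 scale. Slamf6, a marker of progenitor cells, fell from 34.7 and 37.5 CPM at 100 pM to 17.1 and 15.3 CPM at 1 nM (-1.16 ± 0.081).

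Adhesion genes moved both ways. Itgb1, the β1 integrin chain, fell from 768 and 768 CPM at 100 pM to 387 and 368 CPM at 1 nM (-1.02 ± 0.05) and Itgae, CD103, from 87.0 and 85.3 CPM at 100 pM to 29.6 and 29.1 CPM at 1 nM (-1.55 ± 0.061). Itgam, CD11b, rose from 15.9 and 14.6 CPM at 100 pM to 58.1 and 56.6 CPM at 1 nM (1.91 ± 0.068), with 0.670 and 0.836 CPM in unstimulated cells. Of the other myeloid markers, Cd68 rose by 0.53 on the log2 scale, the 5 named above were at 0 reads and the remaining 3 had at most 6 reads in any of the 4 libraries. The part of myeloid cells in this rise was not tested. In the GENCODE M21 annotation the gene Gm49368 overlaps 68.7% of the exonic bases of Itgam on the same strand, so their reads may be mixed. The same holds for smaller shares of Il2rg (30.5%, with Gm20489), Fdps (26.7%, with Gm43738) and Ifng (25.9%, with Gm49751), and on the other strand for Xcl1 (18.7%, with Gm20743). Of 20 adhesion genes 8 rose and 6 fell, or 3 and 8 when scaled by mapped reads, and 4 rose without either 100 pM duplicate. Pecam1, also an endothelial marker, fell from 67.6 and 64.4 CPM at 100 pM to 54.0 and 53.7 CPM at 1 nM.

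Interferon-stimulated genes were mostly lower. Of 45 tested 30 fell (66.7%, against 16.6%), 6 rose and 9 were not called, with a median of -0.38. Beside Iigp1 and Ifi44, Irf7 fell from 38.2 and 36.5 CPM at 100 pM to 20.8 and 20.3 CPM at 1 nM (-0.86 ± 0.068). Oas1a fell from 10.6 and 9.87 CPM at 100 pM to 5.68 and 5.15 CPM at 1 nM (-0.92 ± 0.11). Rsad2, which encodes viperin, fell from 7.42 and 7.74 CPM at 100 pM to 5.04 and 4.99 CPM at 1 nM (-0.60 ± 0.13). The immunity-related GTPases Igtp (213 and 213 CPM at 100 pM and 153 and 151 CPM at 1 nM), Irgm2 (78.2 and 74.8 CPM at 100 pM and 51.4 and 51.5 CPM at 1 nM), Tgtp1 (83.9 and 80.9 CPM at 100 pM and 42.7 and 34.7 CPM at 1 nM) and Tgtp2 (87.8 and 87.1 CPM at 100 pM and 43.1 and 39.2 CPM at 1 nM) fell too. The 6 that rose were 5 guanylate-binding protein genes (Gbp3, Gbp4, Gbp5, Gbp7 and Gbp8) and Isg15. Only 2 rose when scaled by mapped reads, and 3 with limma or without the first 1 nM duplicate. Gbp8 rose from 58.3 and 58.8 CPM at 100 pM to 83.5 and 72.9 CPM at 1 nM (0.42 ± 0.067) and Gbp5 from 36.9 and 37.4 CPM at 100 pM to 46.6 and 49.0 CPM at 1 nM (0.36 ± 0.064). Tgtp1 and Tgtp2 share 99.6% or more of their transcripts at 97% identity or above, and Oas1a is covered in full by Oas1g, so reads of each pair may have been split or shared.

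The interferon-stimulated response element, searched as GAAA, 2 bases of any kind and GAAA again on either strand, stood in the promoter window of 19 of the 33 interferon-stimulated genes with an entry (57.6%) and in 3.80% of all tested genes with one. It was present in members that moved either way. Of the genes below Gbp5 rose and Igtp, Rsad2 and Oas1a fell, and matches are in capitals, with neighbouring matches in Oas1a running together. The stretches are chr3:142496729-142496818 (plus) for Gbp5, chr11:58199482-58199571 (plus) for Igtp, chr12:26456523-26456612 (minus) for Rsad2 and chr5:120907501-120907585 (minus) for Oas1a, all GRCm38.p6.
Gbp5: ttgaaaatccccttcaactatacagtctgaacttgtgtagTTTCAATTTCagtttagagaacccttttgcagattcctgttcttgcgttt
Igtp: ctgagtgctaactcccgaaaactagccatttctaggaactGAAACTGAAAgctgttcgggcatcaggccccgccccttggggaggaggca
Rsad2: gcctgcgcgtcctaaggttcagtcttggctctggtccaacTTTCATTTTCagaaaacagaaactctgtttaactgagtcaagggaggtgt
Oas1a: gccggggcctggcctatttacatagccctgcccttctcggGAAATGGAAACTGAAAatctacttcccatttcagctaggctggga
The list was drawn up from known interferon targets, so its share of the motif describes the list and not the dose.

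Cholesterol and fatty acid synthesis rose nearly throughout. Of 32 genes tested 27 rose (84.4%, against 17.9%), 5 were not called and 0 fell by edgeR, also 0 at an unadjusted p under 0.05 and 0 with DESeq2 and limma. The median was 0.45, and 0.33 when scaled by mapped reads, where 22 rose. Scd1, the stearoyl-CoA desaturase, rose from 117 and 114 CPM at 100 pM to 247 and 242 CPM at 1 nM, a log2 change of 1.08 ± 0.048 (adjusted p = 1.64e-11). Hmgcs1, which feeds the mevalonate pathway, rose from 245 and 238 CPM at 100 pM to 429.5 and 387 CPM at 1 nM (0.76 ± 0.051). Fdps rose from 155 and 153 CPM at 100 pM to 267 and 276 CPM at 1 nM (0.82 ± 0.053). Elovl6 (49.2 and 47.6 CPM at 100 pM and 113 and 111 CPM at 1 nM) and Fads2 (22.4 and 22.99 CPM at 100 pM and 44.3 and 50.8 CPM at 1 nM), which lengthen and desaturate fatty acids, rose by more than 1 on the log2 scale. Fasn, fatty acid synthase, stood at 198 and 195 CPM at 100 pM and 188 and 201.5 CPM at 1 nM and was not called (adjusted p = 0.874). None of the 22 promoter windows of this list held the sterol regulatory letters searched (ATCAC, any base, then CCAC, either strand), against 0.234% of all tested genes. Letters this rare would seldom be found in any 22 windows, so no conclusion is drawn from their absence.

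Genes of the ATF4 stress response and of amino acid supply were as uniform. Of 39 tested 34 rose (87.2%), 5 were not called and 0 fell by edgeR, also 0 at an unadjusted p under 0.05, with 0 falls by DESeq2 and 1 by limma. The median was 0.51. When scaled by mapped reads 32 rose and 2 fell. Atf4 itself rose from 142.3 and 146 CPM at 100 pM to 259.8 and 275.3 CPM at 1 nM (0.89 ± 0.048) and Ddit3, which encodes CHOP, from 29.0 and 27.3 CPM at 100 pM to 59.99 and 63.4 CPM at 1 nM (1.13 ± 0.07). Nupr1, a stress-induced chromatin protein, rose from 1.22 and 1.18 CPM at 100 pM to 8.13 and 7.15 CPM at 1 nM (2.67 ± 0.18). Asns, asparagine synthetase, rose from 63.5 and 63.8 CPM at 100 pM to 131 and 130.5 CPM at 1 nM (1.04 ± 0.045) and Cth, which makes cysteine, from 2.93 and 2.28 CPM at 100 pM to 14.8 and 12.2 CPM at 1 nM (2.35 ± 0.13). The 2 chains of the large neutral amino acid transporter rose together, Slc7a5 from 86.0 and 84.3 CPM at 100 pM to 250.3 and 278 CPM at 1 nM (1.63 ± 0.055) and Slc3a2 from 117 and 116 CPM at 100 pM to 235 and 252 CPM at 1 nM (1.06 ± 0.047). Asns, Cth and Slc7a5 were lower at 100 pM than in unstimulated cells, where they had 125 and 126 CPM, 10.8 and 10.8 CPM and 192.4 and 191 CPM. Phgdh, which starts serine synthesis, stood at 180.3 and 171 CPM at 100 pM and 179 and 192.2 CPM at 1 nM and was not called.

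The letters TGATGNAA of the C/EBP-ATF response element were in the promoter window of 13 of the 30 members of that list with an entry (43.3%) and in 2.81% of tested genes, 4.26% of those higher at 1 nM and 3.23% of those lower. Shown are 3 members that rose by more than 1 on the log2 scale, Asns at chr6:7693185-7693272 (minus), Chac1, a glutathione-degrading enzyme, at chr2:119351009-119351096 (plus) and Nupr1 at chr7:126625533-126625620 (minus), with the match in capitals in either orientation. Chac1 stood at 0.928 and 1.08 CPM at 100 pM and 2.74 and 2.27 CPM at 1 nM (1.32 ± 0.20).
Asns: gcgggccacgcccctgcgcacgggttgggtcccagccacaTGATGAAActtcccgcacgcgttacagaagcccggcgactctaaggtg
Chac1: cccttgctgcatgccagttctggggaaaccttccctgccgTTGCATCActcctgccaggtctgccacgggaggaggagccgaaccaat
Nupr1: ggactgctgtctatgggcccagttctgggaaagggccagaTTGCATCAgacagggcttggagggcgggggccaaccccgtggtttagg
The Asns match begins 23 bases and the Nupr1 match 110 bases before the start of the entry, and that of Chac1 lies further upstream.

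Genes of S phase fell by little but nearly together. Of 35 tested 24 fell (68.6%, against 16.6%) and 1 rose, with a median of -0.23. Mcm3, of the replicative helicase, fell from 248 and 247 CPM at 100 pM to 188 and 191 CPM at 1 nM (-0.38 ± 0.043). Cdc6, which loads it, fell from 44.8 and 43.6 CPM at 100 pM to 32.1 and 31.1 CPM at 1 nM (-0.49 ± 0.057). Pole, the leading-strand polymerase, fell from 121 and 124 CPM at 100 pM to 87.7 and 86.0 CPM at 1 nM (-0.50 ± 0.049). Of 33 genes of mitosis 8 fell (24.2%, against 16.6% of all genes) and 3 rose (9.09%, against 17.9%), with a median of -0.02. Rises there numbered 5 without the second 1 nM duplicate, 1 without the first 100 pM duplicate and 0 without the first 1 nM or the second 100 pM duplicate and with DESeq2 and limma. Falls numbered 13 when scaled by mapped reads, 14 with limma and 5 without the first 100 pM duplicate. Among 23 genes of G1 control 10 rose and 6 fell, or 7 and 10 when scaled by mapped reads. Cdkn1a, the inhibitor p21, rose from 158 and 155 CPM at 100 pM to 331 and 355 CPM at 1 nM (1.14 ± 0.047) and Cdk6, a kinase of G1, from 43.5 and 42.6 CPM at 100 pM to 83.9 and 89.8 CPM at 1 nM (1.01 ± 0.055). Ribosome biogenesis fell in 17 of 39 and rose in 2, with a median of -0.15, and fell in 27 when scaled by mapped reads. Utp20 fell from 28.2 and 27.1 CPM at 100 pM to 21.1 and 17.6 CPM at 1 nM and Nolc1 from 63.3 and 63.7 CPM at 100 pM to 45.4 and 47.4 CPM at 1 nM, while their unstimulated levels were 181 and 187 CPM and 347 and 344 CPM.

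The remaining lists changed less or without a common direction. Glycolysis genes rose in 15 of 28 and fell in 4, with a median of 0.15 and, when scaled by mapped reads, 7 and 4 with a median of 0.03. Without the first 100 pM duplicate 2 fell. Slc2a3, a glucose transporter, rose from 687 and 676 CPM at 100 pM to 927 and 910.0 CPM at 1 nM and Hk2, a hexokinase, fell from 222 and 221 CPM at 100 pM to 179 and 185 CPM at 1 nM. Of 23 genes of MHC class I and antigen processing 0 rose (1 at an unadjusted p under 0.05, 0 with DESeq2 and limma) and 7 fell by edgeR, with a median of -0.09. Scaled by mapped reads or with limma 16 of them fell, and without the first 100 pM duplicate 4. Of 83 cytoplasmic ribosomal protein genes 6 rose and 1 fell, a split that was 0 and 25 when scaled by mapped reads, 21 and 1 without the first and 0 and 7 without the second 1 nM duplicate, and 0 and 1 or 2 and 1 without the first or second 100 pM duplicate. Of 80 genes of oxidative phosphorylation 17 rose (21.2%, near the 17.9% of all genes) and 0 fell by edgeR (1 at an unadjusted p under 0.05, 0 with DESeq2, 11 with limma). These counts became 4 and 6 when scaled by mapped reads. The rises of that list numbered 30 without the first and 8 without the second 1 nM duplicate, and 4 and 6 without the first and second at 100 pM. Of 24 T cell receptor signalling genes 3 rose and 6 fell, but 1 and 13 when scaled by mapped reads, 0 and 11 with limma and 1 and 4 without the first 100 pM duplicate. Of 62 replication-dependent histone genes 3 rose and 0 fell by edgeR (0 at an unadjusted p under 0.05, 0 with DESeq2, 4 with limma), with 1 rise without the second 1 nM and 0 without the second 100 pM duplicate. Of 18 NK-type receptors 2 rose and 6 fell, or 2 and 3 without the first 100 pM duplicate. The lists of AP-1, EGR and NR4A factors (8 and 4 of 22), of endoplasmic reticulum chaperones (11 and 0 of 28 by edgeR, 13 and 2 at an unadjusted p under 0.05, 10 and 0 by DESeq2, but 2 and 4 when scaled by mapped reads and by limma, and 6 and 5 rises without the first and second 100 pM duplicates), of the BCL2 family (4 and 2 of 16) and of chemokine receptors (5 and 2 of 15, or 4 and 4 when scaled by mapped reads) complete the set. The 7 dendritic cell markers summed to 7.34 and 6.15 CPM at 100 pM and 5.29 and 4.88 CPM at 1 nM, with 2 called lower and 2 higher. The MHC class II genes H2-Aa and H2-Eb1 fell, H2-Eb1 from 4.06 and 3.56 CPM at 100 pM to 1.89 and 1.80 CPM at 1 nM. Zbtb46 (0.85) and Flt3 (1.77, on 3 and 7 reads against 20 and 13) rose. The part of such cells in other results was not tested.

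**Figure D4:**
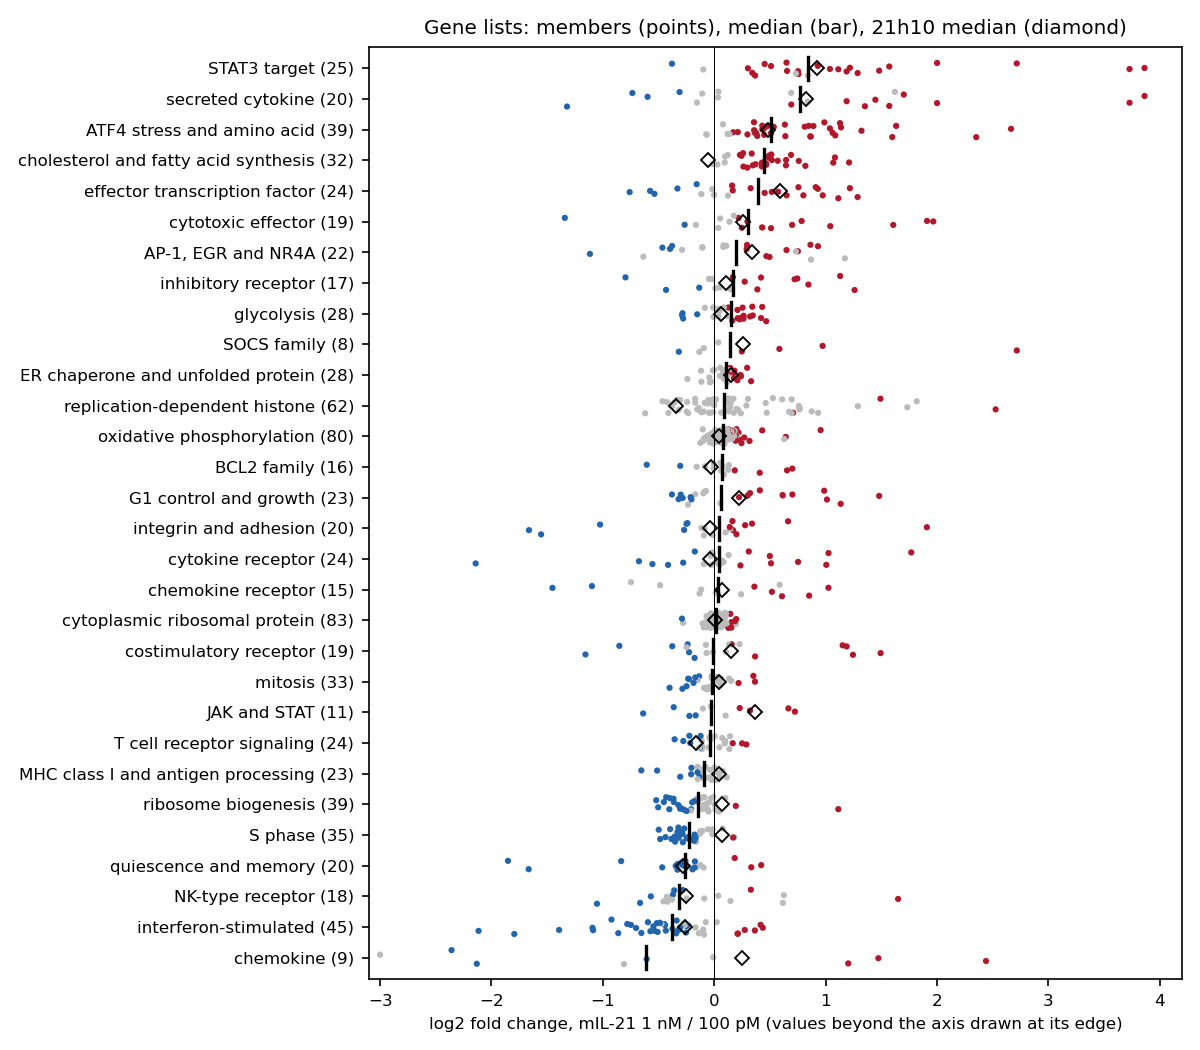
Each point is the log2 fold change of 1 gene from 100 pM to 1 nM of mIL-21, grouped by list with the number tested in parentheses, red where called higher, blue where called lower and grey where not called. Bars are list medians, from 0.84 for STAT3 targets to -0.61 for the 9 chemokine genes, whose median changed sign under other settings, and open diamonds are medians of the same genes for the 21h10 step, which lie on the mIL-21 bar for the ATF4 list (0.48 beside 0.51) and away from it for cholesterol and fatty acid synthesis (-0.06 beside 0.45).

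To ask whether the 10-fold rise in dose did the same for both cytokines, the mIL-21 step was set against the 21h10 step of the same experiment, which shares none of its libraries. The 21h10 step changed 5476 of the 13974 genes (39.2%), 2813 upward (20.1%) and 2663 downward (19.1%). Of the genes that rose with mIL-21 1497 also rose with 21h10, which is 59.8% of the mIL-21 rises and 53.2% of the 21h10 rises. For falls these were 1120 genes, 48.2% and 42.1%. Across the 13974 genes, which are not independent, the log2 changes of the steps correlated with Pearson's r of 0.54 and Spearman's rho of 0.48. The difference between the steps, tested as an interaction, was called in 2570 genes (18.4%), 1166 with a higher value for 21h10 (8.34%) and 1404 with a lower one (10%). It was called in 1665 genes without the first and 1650 without the second 100 pM duplicate of mIL-21. Without the first 100 pM duplicate of 21h10, the genes with a higher value for 21h10 fell to 776. The share of calls higher for 21h10, 45.4%, was 58.7% when scaled by mapped reads, 63.2% with limma and 56.7% with DESeq2.

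Of the 32 genes of cholesterol and fatty acid synthesis 24 had a lower change with 21h10 (10% of all genes did) and 0 a higher one (edgeR, 27 and 0 at an unadjusted p under 0.05). The median difference was -0.50 (-0.01 over all genes). Scd1 stood at 265 and 284 CPM at 100 pM and 239 and 240.2 CPM at 1 nM with 21h10, a change of -0.20, against the rise of 1.08 with mIL-21, and the difference was -1.28 ± 0.066 (adjusted p = 1.37e-09). Hmgcs1 stood at 429.6 and 439.6 CPM at 100 pM and 369.6 and 371 CPM at 1 nM with 21h10, and its difference was -0.99 ± 0.072. Both genes fell with 21h10 and rose with mIL-21. Elovl6 was an exception, with 95.4 and 93.4 CPM at 100 pM and 201.5 and 216 CPM at 1 nM and a difference of -0.065 ± 0.069 that was not called (adjusted p = 0.573).

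For S phase 22 of 35 genes had a higher change with 21h10 (8.34% of all genes did) and 0 a lower (edgeR, 25 and 0 at an unadjusted p under 0.05). The median difference was 0.27. For ribosome biogenesis these were 19 of 39 and 0 (24 and 0), with a median of 0.24. Cdc6 stood at 33.6 and 34.2 CPM at 100 pM and 35.3 and 32.5 CPM at 1 nM with 21h10, and its difference was 0.48 ± 0.079. Interferon-stimulated genes differed in 18 of 45 (18.4% of all genes did), 16 of them higher with 21h10 (8.34% of all genes). As a list they were mostly lower with 21h10 too. In its step 24 fell (19.1% of all genes did) and 12 rose (20.1%). The median was -0.26 with 21h10 and -0.38 with mIL-21, and the median difference was 0.13. Igtp and Irgm2 went against that median. Igtp stood at 128 and 127 CPM at 100 pM and 255 and 254 CPM at 1 nM, a rise where mIL-21 gave a fall, with a difference of 1.49 ± 0.059 (adjusted p = 7.17e-11), and Irgm2 at 40.01 and 40.4 CPM at 100 pM and 64.6 and 62.9 CPM at 1 nM (1.24 ± 0.069). The ATF4 list had near-equal medians of 0.51 and 0.48, yet its genes did not all change alike. Of 39 tested 11 had a lower change with 21h10 (10% of all genes did) and 3 a higher one (8.34%).

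Among called genes whose highest group mean reached an RPKM of 1, the widest differences toward 21h10 were in Tnip3, an NF-κB inhibitor, Mir6903, Gbp10, Il17a and Il1r1, at 2.69, 2.58, 2.18, 2.12 and 2.09 on the log2 scale. Gbp10 stood at 81.7 and 82.4 CPM at 100 pM and 70.2 and 60.6 CPM at 1 nM of mIL-21. With 21h10 it stood at 58.0 and 54.7 CPM at 100 pM and 184 and 222 CPM at 1 nM, and it shares 97.8% of its transcript with Gbp6. Il1r1, the IL-1 receptor, stood at 0.557 and 0.897 CPM at 100 pM and 2.28 and 2.56 CPM at 1 nM of mIL-21, and at 1.46 and 2.01 CPM at 100 pM and 26.6 and 25.4 CPM at 1 nM of 21h10. Toward mIL-21 they were Moxd1, Kif1a, Serpinb5, Tff1 and Mir6236. Moxd1 rested on few reads at 100 pM of mIL-21, and limma turned the sign of its difference. Tff1 changed by 0.36 to 1.15 with mIL-21 over the alternatives, and its call in that step was lost with the replicate block and with DESeq2. Of the exonic bases of Tff1 31.4% overlap Gm15318 on the other strand. Serpinb5 had 68.7 and 67.4 CPM at 100 pM and 447 and 462 CPM at 1 nM with 21h10, a rise of 2.74 against the 5.67 of mIL-21, with a difference of -2.93 ± 0.11. Prf1 (113 and 101 CPM at 100 pM and 280.2 and 249.6 CPM at 1 nM), Gzma (1056 and 974 CPM at 100 pM and 1614 and 1586 CPM at 1 nM) and Gzmb (5491 and 5433 CPM at 100 pM and 7457 and 7714 CPM at 1 nM) gave differences of -0.30 ± 0.087, -1.31 ± 0.068 and -0.57 ± 0.063. The call of Prf1 (adjusted p = 0.0232) was lost when scaled by mapped reads (adjusted p = 0.0831) and with limma (adjusted p = 0.148). It was also lost on leaving out the second 1 nM duplicate of either cytokine, the second 100 pM duplicate of mIL-21 or the first of 21h10 (adjusted p of 0.0535 to 0.143). Cd160 fell further with 21h10, where it stood at 39.9 and 36.0 CPM at 100 pM and 4.95 and 5.28 CPM at 1 nM (-2.09 ± 0.10). Mir6236 varied between duplicates, at 11.3 and 17.5 CPM at 100 pM and 24.5 and 78.3 CPM at 1 nM, and its call for the difference was lost with DESeq2, with limma and without any of 3 single libraries. Mir6903 had a mean RPKM of 2.38 at 100 pM and 1.45 at 1 nM of mIL-21, and the call of Il17a was lost without the first 100 pM duplicate of mIL-21.

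**Figure D5:**
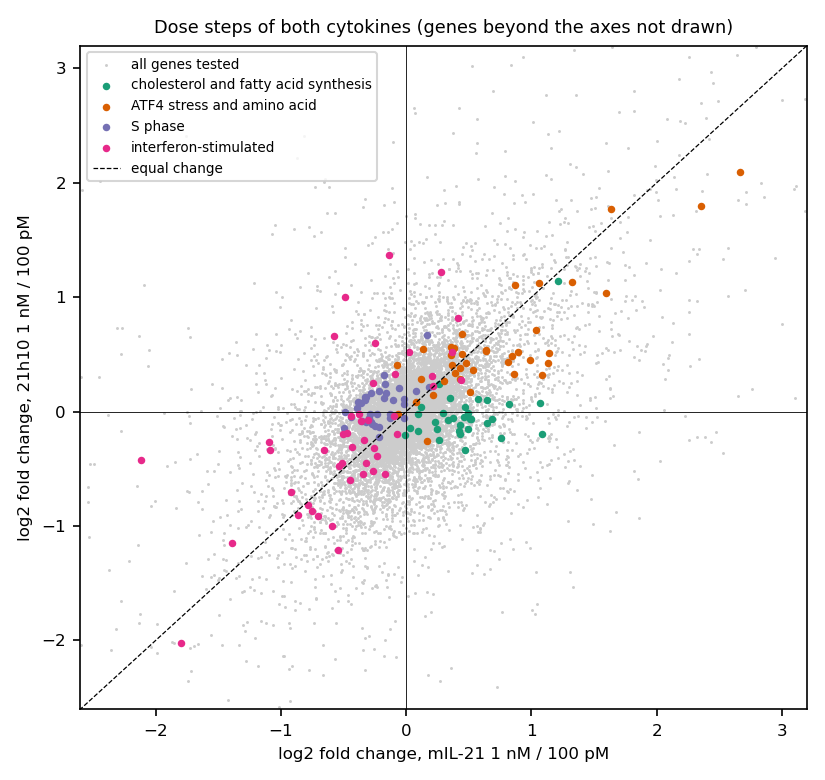
The log2 fold change from 100 pM to 1 nM with 21h10 (vertical axis) is plotted against that with mIL-21 (horizontal axis) for the genes tested, with 4 lists in colour and a dashed line of equal change. Cholesterol and fatty acid genes lie to the right of the line near 0 on the 21h10 axis (medians 0.45 and -0.06) and S phase genes to its left (-0.23 and 0.07). The ATF4 medians lie near it (0.51 and 0.48), though 11 of its 39 genes were called lower and 3 higher with 21h10.

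The second experiment raised mIL-21 10-fold again, from 10 nM to 100 nM, in its own cells and libraries (27072917 to 43300094 reads on genes). There edgeR called 0 of 13772 genes (0%), with 361 at an unadjusted p under 0.05, and DESeq2 and limma on log2(RPKM + 1) called 0 as well. Without the low-count filter edgeR called 14. The spread between duplicates was wider, with a biological coefficient of variation of 8.80% against 4.32% in the first experiment and a median standard error of 0.13 against 0.078. Serpinb5 stood at 229.8 and 211 CPM at 10 nM and 219.8 and 203.4 CPM at 100 nM, a log2 change of -0.059 ± 0.089. Socs3 stood at 322 and 344 CPM at 10 nM and 293 and 291 CPM at 100 nM (-0.19 ± 0.073), Il10 at 56.6 and 59.7 CPM at 10 nM and 45.2 and 43.8 CPM at 100 nM (-0.39 ± 0.1) and Gzmb at 6156 and 5842 CPM at 10 nM and 6374 and 6398 CPM at 100 nM (0.09 ± 0.076). Capn3, which headed the falls listed for the first experiment, stood at 0.613 and 0.394 CPM at 10 nM and 0.641 and 0.387 CPM at 100 nM, low at both doses. Over the 13248 genes tested in both experiments the steps correlated with r of 0.01 and rho of 0.05. The difference between the experiments' steps was not tested, since dose range and experiment cannot be told apart.

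In the second experiment medians of the step were -0.07 for STAT3 targets, -0.09 for cytotoxic effectors, 0.02 for cholesterol and fatty acid synthesis, 0.00 for ATF4 targets, 0.06 for S phase and 0.02 for interferon-stimulated genes, beside -0.01 over all genes tested.

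Against unstimulated cells, which the doses share as control, 10857 genes differed at 100 pM of mIL-21 (77.7%), 5351 upward (38.3%) and 5506 downward (39.4%). At 1 nM 11200 differed (80.1%), 5569 upward (39.9%) and 5631 downward (40.3%). No culture time is given for the unstimulated cells, so cytokine and time in culture cannot be told apart here. Socs3, for example, had 6.57 and 6.67 CPM without cytokine.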

How the data were processed

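RNA-seq of 20 libraries was used, 2 per group, 5 groups in each of 2 experiments. The authors aligned reads to mm10 (GRCm38) with TopHat and deposited, per library, read counts per transcript and RPKM (reads scaled to transcript length and library size). The submitters' processing notes name TopHat2 2.0.11, Bowtie2 2.2.6, SAMtools 0.1.8, bedtools 2.25.0 and edgeR. The counting tool, strand setting and annotation version are not given in the sources used here. For each of 23992 symbols the longest of its transcripts was kept. The deposited counts of the 10 libraries of an experiment were fitted together in edgeR 4.0.16 (R 4.3.3; filterByExpr with a least count of 10 and total of 15, TMM, quasi-likelihood test, Benjamini-Hochberg adjusted p under 0.05). Values are CPM scaled by TMM, and log2 fold changes carry standard errors. Intervals and p-values cover the spread between 2 duplicates a group, for which an exact two-sided permutation test cannot go below p = 0.333.

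The text names the 12 largest rises and 12 largest falls among called genes without overlap and with a mean RPKM of at least 1, the 5 largest differences between steps in each direction, and genes of 30 lists. Members, lists and the list genes named were chosen with earlier results of these data known, and list genes whose calls were mostly lost under an alternative were left unnamed. Alternatives were no filter, a replicate block, mapped reads as library size, the most-read transcript, limma 3.58.1 on log2(RPKM + 1), DESeq2 1.42.0, only the groups compared, a log2 fold change of at least 1, and leaving out each library. Positions came from RefSeq (GRCm38.p6), exon overlaps and copies (BLAST+ 2.17.0, 97% identity over 100 bases) from the GENCODE M21 annotation of GRCm38, and promoter windows from RefSeq, with motifs searched on both strands. Promoters shown were chosen among genes that hold the motif. Some items are not reported here.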

Additional observations from a re-analysis of the deposited data

Results flagged for a closer look

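The change from 100 pM to 1 nM differed between 21h10 and mIL-21 in 2570 of the 13974 genes tested, by the interaction term of the edgeR fit at an adjusted p under 0.05. The genes named in the report that passed this test are listed with the difference in log2 fold change, 21h10 minus mIL-21. The part of the level at 100 pM, which could differ between the cytokines, was not tested.

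The difference was above 0, toward 21h10, for Cxcl10 (2.80), Tnip3 (2.69), Mir6903 (2.58), Gbp10 (2.18), Il17a (2.12), Il1r1 (2.09), Derl3 (1.92), Iigp1 (1.69), Igtp (1.49), Lta (1.32), Klf2 (1.29), Irgm2 (1.24), Capn3 (1.23), Tbc1d4 (1.23) and Ccl4 (1.17). Smaller differences in that direction were those of Lif (0.91), Enpp2 (0.91), Tgtp1 (0.83), Osm (0.79), Tgtp2 (0.76), Stat5a (0.74), Myc (0.74), Itgb1 (0.67), Utp20 (0.63), Nolc1 (0.59), Hk2 (0.57), Ccl5 (0.52), Pecam1 (0.50), Cdc6 (0.48), Mcm3 (0.47), Gbp8 (0.41), Entpd1 (0.39), Pole (0.35), Tnfsf10 (0.34), Socs5 (0.32) and Il12rb2 (0.27). Cxcl10 rests on 1 to 11 reads in each mIL-21 library, and the fitted value depends on the prior count. A difference above 0 is not in itself a rise with 21h10. For some of these genes, such as Klf2 and Itgb1, both cytokines lowered the gene and the fall was smaller with 21h10. The changes with mIL-21 and 21h10 were -1.67 and -0.37 for Klf2 and -1.02 and -0.36 for Itgb1.

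The difference was below 0, toward mIL-21, for Scd1 (-1.28), Gcnt1 (-1.29), Gzma (-1.31), Itgam (-1.38), Serpinb1a (-1.43), Ggt1 (-1.52), Ifitm1 (-1.82), Cd160 (-2.09), Gm5535 (-2.49), Mir6236 (-2.79), Tff1 (-2.79), Serpinb5 (-2.93), Kif1a (-2.98) and Moxd1 (-4.19). Smaller ones were those of Stat3 (-0.19), Il10ra (-0.26), Tcf7 (-0.29), Slc2a3 (-0.30), Prf1 (-0.30), Asns (-0.32), Gata3 (-0.33), Bcl3 (-0.34), Atf4 (-0.37), Itgae (-0.40), Slamf6 (-0.43), Cdkn1a (-0.51), Tnfrsf18 (-0.55), Pim1 (-0.56), Cth (-0.56), Tnfrsf9 (-0.57), Gzmb (-0.57), Lag3 (-0.62), Ddit3 (-0.71), Tnfrsf4 (-0.72), Bcl6 (-0.74), Havcr2 (-0.74), Fdps (-0.75), Socs3 (-0.80), Pdcd1 (-0.91), Fads2 (-0.99) and Hmgcs1 (-0.99). Moxd1 had 0 and 2 reads at 100 pM of mIL-21, so its value too depends on the prior count. For Cd160, Itgae, Slamf6, Tcf7, Gata3 and Il10ra both cytokines lowered the gene and the fall was larger with 21h10.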

How the results depend on the processing

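No named gene called in the dose step changed direction under the alternatives run, while Cd8a, Fasn and Phgdh, which were not called, had values on both sides of 0. Calls were lost or gained under at least 1 alternative for 10 of them (Cxcl10, Gbp10, Gzmm, Il17a, Il22, Il2rg, Mir6236, Mir6537, Mir6903 and Tff1). The named genes of the lists were picked with such values known, so this is no measure of stability. With a log2 fold change of at least 1 also required, the step kept 555 genes (377 higher, 178 lower), the difference between steps 288 (97 and 191), 100 pM against unstimulated 3916 (2302 and 1614) and 1 nM against unstimulated 4518 (2611 and 1907). Scaling by mapped reads gave 1459 rises and 4132 falls for the step, and limma 1228 and 3804. The all-gene medians were then -0.12 and -0.11, a shift whose cause was not tested. Scaled by mapped reads, the median of the difference between steps was 0.045 and that of 100 pM against unstimulated 0.075. Limma called 685 genes lower for the difference, and turned its sign in Gcnt1 (0.53), Il10 (0.67), Hlx (0.53), Cpa3 (0.48), Ifi44 (0.48), Moxd1 (1.31) and Itgae (0.12), and the cause was not tested. Without the low-count filter the step from 10 nM to 100 nM had 14 calls (11 higher, 3 lower). Leaving out 1 library, which leaves a lone sample assumed to vary like the other groups, gave 3009 to 4255 calls for the step (1660 to 2283 higher, 1349 to 1972 lower), lowest without the first 100 pM duplicate. For the difference it gave 1650 to 3268 (733 to 1566 higher, 883 to 1702 lower), with 1665 and 1650 without the first and second 100 pM duplicates of mIL-21 and 776 higher without the first of 21h10. In the first experiment duplicates with the same number did not deviate together (correlations of -0.062 to 0.029 over 10 pairs of groups). In the second the correlations were -0.167 to 0.227, with 3 of 10 pairs above 0.1. Whether duplicates with the same number share a mouse or a batch was not tested. With the replicate block the step had 4557 calls (2385 higher, 2172 lower), the difference 2352 (1068 and 1284), the comparisons with unstimulated 10768 (5306 and 5462) at 100 pM and 11143 (5540 and 5603) at 1 nM, and the step of the second experiment 0. Depth limits genes of few reads, such as Il22 and Cxcl10.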
